A study of Dorcoceras hygrometricum with 14 samples.

Results

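The regions described here are stretches of the Boea hygrometrica genome, away from annotated genes, whose CG methylation was listed as higher in mature leaves than in young leaves. Of the 2247 CG regions that the authors listed as differing between the leaf ages, 965 carried no gene in any of 4 annotation columns (2000 bases upstream, exon, coding sequence, 2000 bases downstream). Of these gene-free regions, 576 had the higher level in mature leaves and make up the set, and 389 had it in young leaves. The sign of the difference chose the set, so the levels below are given as a description with no test. The share of listed regions higher in mature leaves was 59.7% among gene-free regions, 48.1% among the 1282 regions tied to genes and 53.1% over the whole list. Among gene-free regions, the higher number in mature leaves rested on differences under 0.2 in size. The share was 60.8% at a difference of at least 0.1. At 0.2 or more it was 50.9% (83 regions higher in mature leaves and 80 in young leaves), and at 0.5 or more 30.8% (4 and 9). Among regions tied to genes the share was 46.9%, 43.1% and 26.3% at the same limits, lower than among gene-free regions at each.

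Boea hygrometrica, a Gesneriaceae species, survives drying of its leaves and can regenerate shoots from pieces of them. The mature-leaf library came from fully expanded leaves of untreated 6-month-old plants and the young-leaf library from expanding leaves of untreated 1-month-old plants, both grown sterile from seed of wild plants and without growth regulators. DNA of 5 replicates, each of 30 leaf discs, was mixed before each bisulfite library was made, so each leaf age has 1 library and no spread between plants can be had. The libraries yielded 41.19 Gb of clean bases for mature leaves and 44.49 Gb for young leaves per the series' design text. The study also holds 12 RNA libraries of leaf explants, 3 replicates on each of 4 days of culture, of which the day 0 values are used below for genes near the regions. Leaf age and plant age changed together and cannot be told apart, and a partial change in every cell and a full change in some cells cannot be told apart in DNA from whole leaf discs.

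Bisulfite sequencing reads methylated cytosines as C and unmethylated ones as T, so the level of a region is a methylated fraction, from 0 to 1. How the authors combined reads and sites into that fraction is not known here. Cytosine methylation in plants occurs in the CG, CHG and CHH contexts, where H is any base but G. In Arabidopsis the CG form is copied after each replication by the methyltransferase MET1, the CHG form is kept mainly by CMT3 together with histone methylation, and the CHH form has to be laid down again through CMT2 or through small RNAs. Outside genes, dense methylation in all contexts is the usual state of transposons and other repeats, and glycosylases of the ROS1 family can remove it.

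The typical member was densely methylated in both libraries and close to full methylation in mature leaves. The median level was 0.981 in mature leaves (quartiles 0.960 and 1) and 0.861 in young leaves (quartiles 0.811 and 0.884). The median difference, mature minus young, was 0.119, with quartiles of 0.102 and 0.157. In mature leaves 479 members (83.2%) were above 0.95 and 147 (25.5%) were listed at exactly 1. Both levels were above 0.7 in 515 members (89.4%). Gene-free regions higher in young leaves came near to a mirror image, with medians of 0.978 in young leaves and 0.848 in mature leaves. Of those 389 regions, 75.8% were above 0.95 in young leaves and 18.8% were listed at exactly 1 there. Both levels were above 0.7 in 85.1% of them. A level close to 1 in the higher library was thus not particular to mature leaves. A difference of at least 0.1 was seen in 452 members (78.5%), one of at least 0.2 in 83 (14.4%) and one of at least 0.5 in 4.

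**Figure D1:**
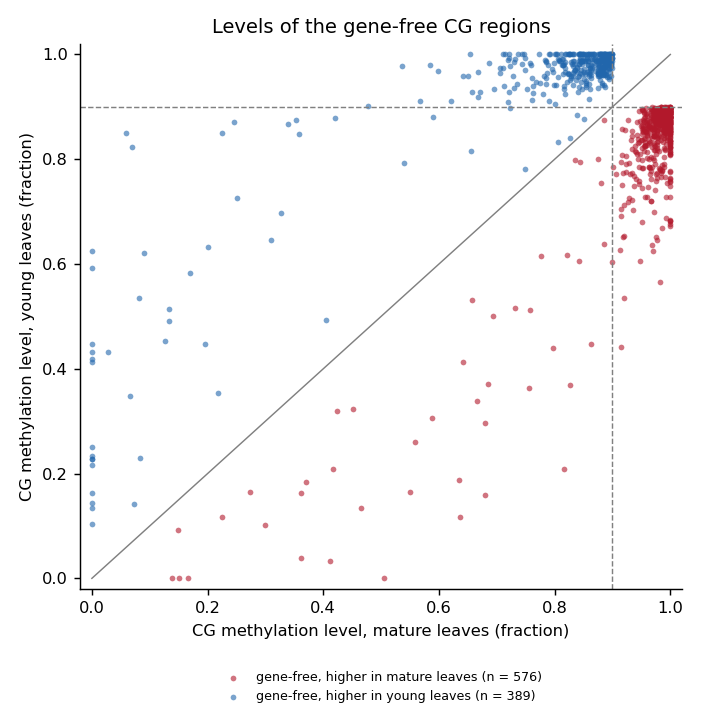
CG methylation level in mature leaves (horizontal, fraction from 0 to 1) against that in young leaves (vertical) for each gene-free CG region, red where mature leaves were higher (576) and blue where young leaves were higher (389). Dashed lines mark a level of 0.9 and the diagonal marks equal levels. Most red points crowd between 0.95 and 1 in mature leaves and between 0.8 and 0.9 in young leaves, and no point lies above 0.9 in both.

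The young-leaf level had an upper edge at 0.9. The highest young-leaf level of any member was 0.8999, and 531 members (92.2%) had a mature-leaf level above 0.9. Of the gene-free regions higher in young leaves, 87.4% had a young-leaf level above 0.9. The same edge held for the other listed CG regions, where the lower of both levels reached at most 0.899894 in gene-free regions higher in young leaves and 0.9 in regions tied to genes. The higher of both levels was never under 0.101676 in the whole list, and the lowest among members was 0.139. No source used here states such a limit, so the file shows nothing of regions that stayed above 0.9 in both leaf ages.

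By their young-leaf level the members fell into bands, with limits set after the values were seen. The largest band, above 0.8 to 0.9, held 444 members (77.1%), with a median of 0.986 in mature leaves and a median difference of 0.111. The band above 0.5 to 0.8 held 100 members, with a median of 0.962 in mature leaves and a median difference of 0.208. The band above 0.2 to 0.5 held 15 members, with a median of 0.680 in mature leaves and a median difference of 0.327. The lowest band, 0 to 0.2, held 17 members, with a median of 0.362 in mature leaves and a median difference of 0.199. Since a level cannot exceed 1, a member of the top band could differ by at most 0.2.

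The 32 members at 0.5 or less in young leaves form a minor set of sparsely methylated regions in young leaves. Their mature-leaf levels ran from 0.139 to 0.915 with a median of 0.527. They lay at a median of 6145 bases from the nearest gene with coordinates, against 47727 bases for the band above 0.8. Of the 32, 22 (68.8%) were on the 9 scaffolds richest in genes, against 55 of 444 (12.4%) in the band above 0.8.

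The largest differences clustered on scaffold KQ988202.1. KQ988202.1:100451-101269, a region of 819 bases with 15 CG sites, had a level of 0.816 in mature leaves and 0.208 in young leaves, a difference of 0.608. KQ988202.1:99331-100012, 682 bases with 15 sites, had 0.679 in mature leaves and 0.159 in young leaves, a difference of 0.521. KQ988202.1:113266-113578, 313 bases with 14 sites, had 0.637 in mature leaves and 0.117 in young leaves, a difference of 0.520. The first pair, at 100451 and 99331, are neighbours, flanked by further members at 98854-99170 (0.550 in mature leaves and 0.165 in young leaves) and 101809-101954 (0.680 in mature leaves and 0.296 in young leaves). From 98854 to 101954 on this scaffold, all 4 listed CG regions were higher in mature leaves.

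Between that stretch and the third region lay regions of the opposite sign. The gene-tied region KQ988202.1:109572-110199, at the hypothetical gene F511_00276, had a level of 0.102 in mature leaves and 0.673 in young leaves, a difference of -0.571. The gene-free region at 112878-113041 had 0 in mature leaves and 0.250 in young leaves. F511_00276 is the nearest gene with coordinates to all of the members just named, at 5930 bases from the member with the largest difference and 2405 bases from the third. Its RNA was at 22.88, 21.34 and 34.06 FPKM (fragments mapped, scaled to transcript length and library size) in the 3 young-leaf explant libraries of day 0, so it was expressed in each of them. All 12 RNA libraries of the series came from young-leaf explants, so methylation and expression cannot be set side by side across leaf ages.

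The next members by size of difference were both on KV005017.1, the scaffold with the most genes. KV005017.1:444350-444532, with 6 CG sites, had a level of 0.505 in mature leaves and was listed at 0 in young leaves. Its nearest gene, 3266 bases away, is F511_00654, described as a chloroplastic pentatricopeptide repeat protein, of a family that processes organelle RNA. KV005017.1:1072241-1072521, with 8 sites, had 0.915 in mature leaves and 0.442 in young leaves, a difference of 0.473. It lay 2593 bases from F511_00747, described as an F-box family protein, a class that selects proteins for degradation.

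In all, 4 members were listed at 0 in young leaves, and 3 of them stayed low in mature leaves. These 3 were KV005017.1:1154919-1155278 with 0.150 in mature leaves, KV009364.1:8484-8821 with 0.165 and KV010635.1:939809-940010 with 0.139. KV009364.1:8484-8821 lay 2087 bases from F511_00788, described as an ethylene responsive factor, which had 146.51, 143 and 87.67 FPKM in the day 0 libraries. The coverage behind these levels is unknown, so no upper limit can be set on a level listed at 0.

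At the other end, some members barely differed in level. KV010159.1:361668-362028 had 0.885 in mature leaves and 0.874 in young leaves, a difference of 0.0108, the smallest in the set. Its p in the authors' deposited table was 8.22707e-05, so a small difference in level did not go with a high p there. KQ995346.1:140360-140489 followed with 0.835 in mature leaves and 0.798 in young leaves, a difference of 0.0370. The next were KQ995346.1:537689-537843 (0.843 in mature leaves and 0.794 in young leaves), KQ991163.1:449497-449620 (0.927 in mature leaves and 0.875 in young leaves) and KV018342.1:1003206-1003319 (0.946 in mature leaves and 0.892 in young leaves). Just outside the rule, KV009364.1:532738-532894 had 0.826 in mature leaves and 0.840 in young leaves (-0.0137) and KV016699.1:351375-351675 had 0.851 in mature leaves and 0.877 in young leaves (-0.0253). The sign of such regions rests on a difference that no replicate can weigh.

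The members were short. Their median length was 141 bases (quartiles 92.75 and 213, range 50 to 1055) and together they covered 99131 bases. The median number of CG sites was 6, and 283 members (49.1%) had 5, the fewest in the list. Members had a median of 4.48 CG sites per 100 bases. The gene-free regions higher in young leaves resembled them, with a median length of 152 bases, 5 sites and 4.14 sites per 100 bases. Regions tied to genes had medians of 211 bases and 3.02 sites per 100 bases where mature leaves were higher, and 197 bases and 3.45 sites where young leaves were higher. These measures were not used by the rule, but the authors' listing may depend on them, and the classes were not tested against each other because regions of 1 pair of libraries are not replicates.

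The longest member carried the most sites. KV018098.1:478967-480021 spans 1055 bases with 39 CG sites and had 0.965 in mature leaves and 0.772 in young leaves. Its p in the authors' deposited table, 5.9644e-09, was the smallest of the set. It lay 2955 bases from F511_01560, which the table describes as an HTH-type transcriptional regulator. KQ987269.1:850587-851160, with 25 sites, had 0.755 in mature leaves and 0.364 in young leaves, and KQ986804.1:281056-281571, with 19 sites, had 0.416 in mature leaves and 0.209 in young leaves. KQ986804.1:187560-187944, with 17 sites, had 0.465 in mature leaves and 0.134 in young leaves. KV016699.1:522729-523073, which ties with it at 17 sites, had 0.979 in mature leaves and 0.885 in young leaves. KV000205.1:775763-776154, with 18 sites, is also of the usual dense kind, with 0.991 in mature leaves and 0.886 in young leaves.

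The difference of gene-free regions was smaller than that of regions tied to genes, whichever library was higher. A difference of at least 0.2 in size was seen in 14.4% of members and in 20.6% of gene-free regions higher in young leaves. It was seen in 52.5% of the 617 gene-tied regions higher in mature leaves and in 64.4% of the 665 gene-tied regions higher in young leaves. The lower level was above 0.8 in 77.1% of members, 71.5% of gene-free regions higher in young leaves, and 27.4% and 12.9% of the gene-tied regions higher in mature and in young leaves. Listed at 0 in the lower library were 0.694% of members, 3.86% of gene-free regions higher in young leaves, 5.02% of gene-tied regions higher in mature leaves and 37.0% of gene-tied regions higher in young leaves.

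**Figure D2:**
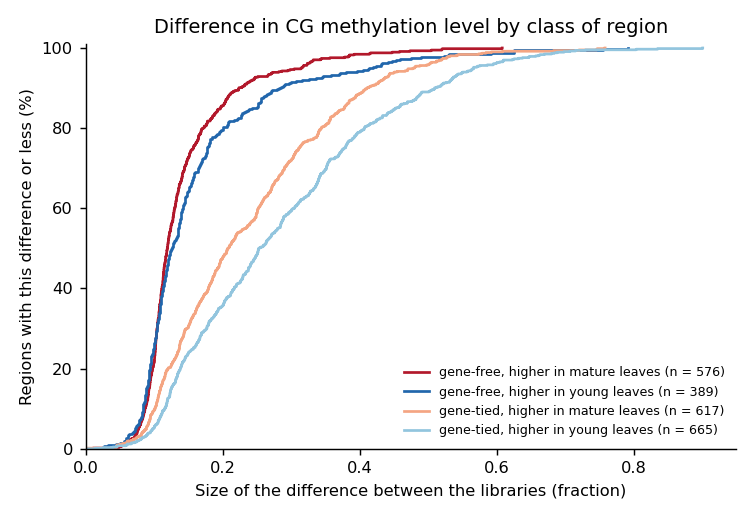
Cumulative share of CG regions (vertical, percent) by the size of the difference in methylation level between the libraries (horizontal, fraction), for the 4 classes of listed region. The curve of the 576 gene-free regions higher in mature leaves climbs most steeply near 0.1, with 14.4% of regions at 0.2 or more, against 52.5% of the gene-tied regions higher in mature leaves.

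The listed regions came from 18 scaffolds, and members were found on each of them. The largest numbers were 77 on KV010159.1, 65 on KV018342.1 and 61 on KV000205.1, and the smallest was 5 on KV005017.1. KV010159.1 members differed by a median of 0.115 (range 0.0108 to 0.304), KV018342.1 members by 0.111 (range 0.0534 to 0.266) and KV000205.1 members by 0.115 (range 0.0583 to 0.327). These scaffolds carry 19, 2 and 14 genes with coordinates in the expression table, and KV005017.1 carries 186. The 9 scaffolds with 41 genes or fewer (114 genes in all) held 473 members (82.1%), and the 9 with 83 genes or more (1232 genes) held 103. Since the rule asks for distance from genes, more members on gene-poor scaffolds follow from it (Spearman rho = -0.797 over 18 scaffolds, a description).

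The size of the difference also varied with the scaffold. Members on the 9 gene-rich scaffolds had a median difference of 0.145 and medians of 0.968 in mature leaves and 0.810 in young leaves. Members on the 9 gene-poor scaffolds had a median difference of 0.118 and medians of 0.982 in mature leaves and 0.864 in young leaves. The share with a young-leaf level of 0.5 or less was 21.4% on the gene-rich scaffolds (22 of 103) and 2.11% on the gene-poor ones (10 of 473). Across scaffolds the median difference ran from 0.110 on KQ991163.1 to 0.357 on KV005017.1, with a Spearman rho of 0.667 to the number of genes over 18 scaffolds. The medians of the 7 scaffolds with the most genes rest on 5 to 11 members each, and depth per scaffold is unknown. Gene-free regions higher in young leaves also differed more on the gene-rich scaffolds. Their median difference was -0.204 there and -0.121 on the gene-poor scaffolds, so the pattern was not particular to members.

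Among gene-free regions, 60.8% were higher in mature leaves on the gene-poor scaffolds (473 of 778) and 55.1% on the gene-rich ones (103 of 187), against 53.1% in the whole list. Mature leaves held the higher number on 14 scaffolds. The numbers were equal on KV018098.1 (6 and 6), and young leaves held the higher number on KV010635.1 (6 higher in mature leaves and 13 in young leaves), KQ987269.1 (9 and 11) and KV005017.1 (5 and 6). On KQ988202.1, with the largest differences, the numbers were 11 higher in mature leaves and 10 in young leaves.

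**Figure D3:**
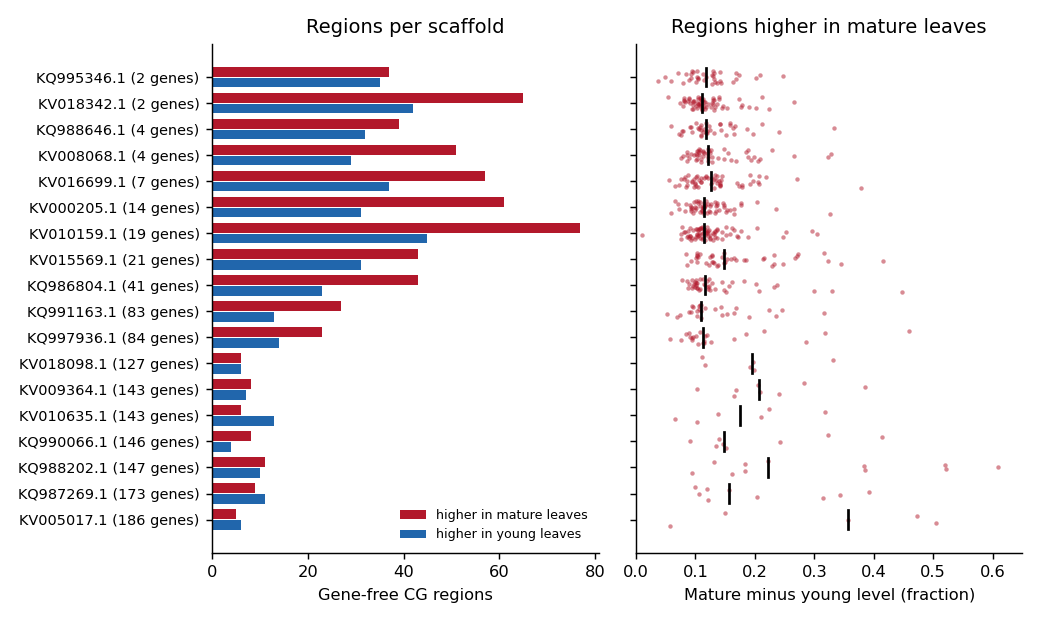
Left, number of gene-free CG regions higher in mature leaves (red) and in young leaves (blue) on each of 18 scaffolds, ordered from 2 to 186 genes with coordinates. Right, mature minus young level (fraction) of each region higher in mature leaves, with the median of the scaffold as a black line. Counts are lowest on the scaffolds with most genes, and the medians there, from 0.149 upwards on the last 7 scaffolds, rest on 5 to 11 regions each.

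Gaps between successive members, with regions of the other classes left aside, had a median of 13198 bases (quartiles 5284.5 and 32523.5). Of 558 gaps, 43 were of at most 1000 bases and 17 of at most 200. To the nearest listed CG region of any class, members had a median distance of 3302 bases. The nearest listed CG region of any class was higher in mature leaves too for 363 of the 576 members (63.0%), where 53.1% of all listed regions were. On the gene-poor scaffolds, which held 82.1% of members, 60.8% of gene-free regions were higher in mature leaves. The matching share of nearest regions was 57.3% for gene-free regions higher in young leaves (223 of 389). For gene-tied regions it was 56.9% where mature leaves were higher and 41.4% where young leaves were. By distance, that share was 61.2% for the 85 members with a neighbour within 500 bases, 57.2% for the 269 with the nearest beyond 500 and up to 5000 bases away and 70.7% for the 222 with none closer, so it was not highest for close neighbours. Within 500 bases, the share of neighbours higher in mature leaves was 55.7% for gene-free regions higher in young leaves, 67.3% for gene-tied regions higher in mature leaves and 24.0% for gene-tied regions higher in young leaves. Close neighbours of members were thus of either sign.

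The label gene-free was checked against gene coordinates in the expression table. No member overlapped the span of any of the 1346 genes with coordinates on the 18 scaffolds, introns included, and 1 member lay within 2000 bases, at 1968 bases. The median distance was 41937 bases, 54 members (9.38%) lay within 5000 bases and 256 (44.4%) lay over 50000 bases away. The expression table holds coordinates for 759 of the 886 genes that the authors tied to listed CG regions (85.7%), so some genes near members may be missing from these distances.

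The members had 131 distinct nearest genes, of which 78 (59.5%) were described as hypothetical proteins. The same description was given to 653 of the 1346 genes of the 18 scaffolds (48.5%). At day 0, 74 of the nearest genes (56.5%) averaged at least 1 FPKM over 3 young-leaf explant libraries, against 1116 of the 1346 genes (82.9%). Within the gene-rich scaffolds the share was 58 of 66 nearest genes (87.9%) and 1066 of 1232 genes in all (86.5%). Within the gene-poor scaffolds it was 16 of 65 nearest genes (24.6%) and 50 of 114 genes in all (43.9%). F511_09092, a hypothetical gene on KV018342.1, was the nearest gene of 43 members and had 0, 0.41 and 0 FPKM in the day 0 libraries. F511_01157 on KQ986804.1, described as a myosin heavy chain, was the nearest gene of 25 members and was listed at 0 in all 3.

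Some members lay not far from genes with a named product. KQ987269.1:652688-652976, with 0.948 in mature leaves and 0.605 in young leaves, lay 3150 bases from F511_03091, described as ANTHOCYANINLESS 2, a homeobox-leucine zipper factor that in Arabidopsis affects anthocyanin in leaf tissue below the epidermis. F511_03091 had 45.25, 46.42 and 54.15 FPKM at day 0. KV009364.1:617206-617532, with 0.920 in mature leaves and 0.534 in young leaves, lay 8916 bases from F511_00867, described as ECERIFERUM 3, which acts in wax synthesis in Arabidopsis. F511_00867 had 26.13, 20.82 and 17.67 FPKM. Whether either gene is affected by its neighbouring region was not tested.

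Methylation in the other sequence contexts was listed separately, in tables for CHG and for each strand of CHH, and these lists were not used by the rule. They come from the same study, with sample names that the labels do not define, and are not further replicates. Of the members, 120 (20.8%) overlapped a listed CHG or CHH region by at least 1 base. The share depended on that limit: 55 members (9.55%) had at least 50% of their bases covered, and 328 (56.9%) had such a region within 1000 bases. A CHG region was overlapped by 77 members (13.4%), a CHH region of either strand by 55 (9.55%), both kinds by 12 and all 3 lists by 2. The CHG share was 7.20% in gene-free CG regions higher in young leaves, 6.65% in gene-tied regions higher in mature leaves and 4.96% in gene-tied regions higher in young leaves. With at least 50% covered it was 6.77% of members, and 3.34%, 3.24% and 2.86% of the other classes in the same order. Within 1000 bases it was 31.4% of members, and 25.2%, 14.9% and 10.8% of the other classes. Most CHG regions were gene-free too (65.2% of 1548). Within the gene-poor scaffolds the CHG share was 12.3% of members and 5.57% of gene-free regions higher in young leaves, and within the gene-rich scaffolds it was 18.4% and 13.1% of the same classes. The 77 members on a CHG region were longer than the other 499, with median lengths of 214 and 136 bases, and their median difference was 0.137 against 0.117.

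The direction of these CHG regions can be given only in the words of their table, which sets a sample BhB against a sample BhS, names without a definition in the labels. Of the 77 CHG regions that members overlapped, 73 were listed as up in BhB relative to BhS (94.8%), against 63.0% of all 1548 CHG regions and 67.7% of the 1010 gene-free ones. Of the 28 CHG regions on gene-free CG regions higher in young leaves, 3 were listed as up (10.7%). Gene-tied CG regions showed the same split. Those higher in mature leaves overlapped 39 up of 47 CHG regions, and those higher in young leaves 2 up of 35. The split thus went with the sign of the CG difference and was not particular to gene-free regions. CHH regions were mostly listed as up wherever they lay. Members overlapped 35 up of 36 on the positive strand, where 83.7% of all 1738 were up, and 24 up of 27 on the negative strand, where 83.7% of all 1610 were up.

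CHG regions were thus mostly up on members and mostly down on gene-free CG regions higher in young leaves, while CHH regions were mostly up on both (19 of 19 on the positive strand and 12 of 15 on the negative strand where young leaves were higher in CG). Whether BhB stands for mature leaves is not settled by the labels. By band of young-leaf level, a CHG region was overlapped by 3 of the 17 members at 0.2 or less (17.6%), 6 of the 15 above 0.2 to 0.5 (40%), 20 of the 100 above 0.5 to 0.8 (20%) and 48 of the 444 above 0.8 (10.8%), with no steady order over the bands.

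**Figure D4:**
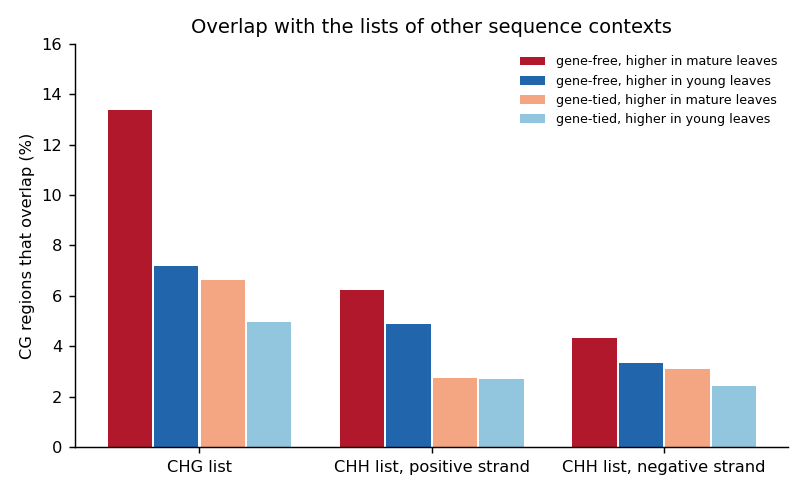
Share of CG regions (vertical, percent) in each of 4 classes that overlap by at least 1 base a listed CHG region or a listed CHH region of either strand. The red bar, gene-free regions higher in mature leaves, stands at 13.4% for CHG, 6.25% for CHH on the positive strand and 4.34% on the negative strand, and is the tallest in each group.

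The 5 members named for the longest overlap follow, so both contexts at the same place were fixed by that choice. KQ987269.1:850587-851160 lay wholly inside a CHG region of 660 bases with 35 CHG sites, listed as up. KV015569.1:383720-384126, with 0.982 in mature leaves and 0.567 in young leaves in CG, shared 331 bases with a CHG region listed as up. It lay 8884 bases from F511_04120, described as serine incorporator 3-like. KQ987269.1:652688-652976 shared all its 289 bases with a CHG region and is among the 2 members that overlapped all 3 lists. KV005017.1:1072241-1072521 shared 258 bases with a CHG region. KV008068.1:150377-150611, with 1 in mature leaves and 0.851 in young leaves, shared 234 of its 235 bases with a CHG region. The CHG regions of all 5 were listed as up in BhB.

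The p-values that admitted the regions to the list took few distinct values. Among the 283 members with 5 CG sites, 281 had a p in the authors' deposited table that was a whole multiple (within 0.001 of a step) of 0.00794, the smallest two-sided p that an exact rank test of 5 values against 5 can give. Of them 163 (57.6%) stood at 0.0476, the highest step under 0.05, and 19 stood at the lowest step. With 5 sites, that highest step was held by 53.7% of gene-free regions higher in young leaves. It was held by 41.6% of gene-tied regions higher in mature leaves and 27.5% of those higher in young leaves. Among the 108 members with 6 sites, 106 were whole multiples of the matching step of 0.00216. Whole multiples were less frequent in gene-tied regions with 6 sites, at 86.0% where mature leaves were higher and 74.5% where young leaves were. The steps are those of a rank test of the sites of 1 library against those of the other. Which test the authors ran is not stated in the sources used here. With 1 library a leaf age, the p-values carry no spread between plants. A p under 0.001 in the authors' deposited table was held by 42 members (7.29%), against 3.60% of the gene-free regions higher in young leaves, 10.4% of the gene-tied regions higher in mature leaves and 18.3% of those higher in young leaves.

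**Figure D5:**
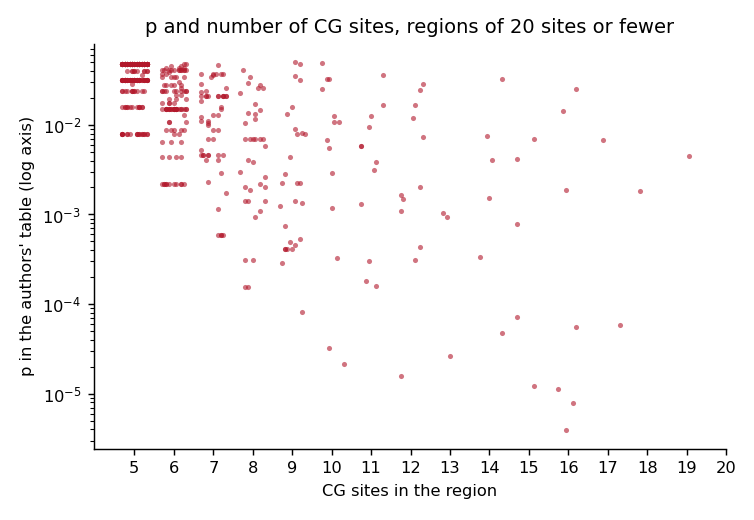
p in the authors' deposited table (vertical, log axis) against the number of CG sites (horizontal, points spread sideways within each number) for gene-free CG regions higher in mature leaves with 20 sites or fewer. At 5 sites the points form rows between 0.00794 and 0.0476, and lower values appear only with more sites.

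After KV018098.1:478967-480021, the smallest p-values in the authors' deposited table belonged to 4 members with 15 or 16 sites. KV009364.1:617206-617532 had p = 3.8952e-06 in the authors' deposited table. KQ997936.1:46930-47295, with 0.913 in mature leaves and 0.626 in young leaves, had p = 7.9644e-06 in the authors' deposited table. KQ991163.1:630940-631359, with 0.985 in mature leaves and 0.668 in young leaves, and KQ988202.1:100451-101269 followed with p = 1.12956e-05 and p = 1.20762e-05 in the authors' deposited table. Sequences of the members are not printed, since no genome was used here.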

How the data were processed

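Each CG level is a methylated fraction as the authors deposited it, and the p-value beside it is the authors' deposited one, with no adjustment stated. Expression values were computed by the authors and are in FPKM, per the file headers. The submitters' processing notes name BSMAP, Bowtie2 2.2.5, HISAT and StringTie 1.0.4 without a role. The region caller, its limits, the genome build and the coverage per site are not given in the sources used here, so no counting interval is given.

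Members were found by the 4 annotation columns and the sign of the difference. Overlaps, gaps and distances to genes were computed from coordinates with Python 3.11.15, pandas 2.3.3 and numpy 2.4.6 and checked on simulated data. The CHG and CHH tables hold 6 columns of levels whose sample names the labels do not explain, and these were not used. Regions named were the 5 members with the largest difference, the smallest difference, the most sites and the smallest p, the 5 with the longest CHG or CHH overlap, and the 3 scaffolds with most members, with ties ordered by number of sites, scaffold and start and 1 tie at 17 sites named as well. Other regions and all genes were named after their values were seen, as were the limits that divide scaffolds by gene number. The members and lists were chosen with earlier results of these data known. With 1 library a leaf age no test was possible.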

Additional observations from a re-analysis of the deposited data

How the results depend on the processing

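Stricter limits kept far fewer members. With p under 0.001 in the authors' deposited table, 42 members were left, 75% of such gene-free regions were higher in mature leaves, and the medians were a difference of 0.149, 10 sites and 232 bases. With at least 10 CG sites the values were 65 members, 65%, 0.133, 12 sites and 289 bases. With a difference of at least 0.5 in size they were 4 members, 30.8%, 0.520, 14.5 sites and 497.5 bases, so the excess of regions higher in mature leaves did not hold among the largest differences. These medians move by construction, since each limit selects on a related measure. The mean difference was 0.143, and 0.149 when weighted by sites, above the median of 0.119. The share of members on a CHG or CHH region was 9.55% when at least 50% of the member had to be covered and 56.9% when regions within 1000 bases counted, and its values in the other classes were computed after seeing the data. Merging members within 200 bases left 559, and leaving out the member within 2000 bases of a gene left 575. Without the scaffold with the most members, chosen after seeing the data, 499 were left, 59.2% of gene-free regions were higher in mature leaves, the median difference was 0.120 and 21.4% overlapped a CHG or CHH region. A stricter annotation could not be tried, as the table has no further column that names a gene. No paired analysis was possible because each leaf age has 1 library, and no library could be left out. Unknown coverage limits every level.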

Other observations

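Of the 8 CG regions that start within the first 1000 bases of a scaffold, 5 were gene-free and higher in mature leaves and 3 were gene-free and higher in young leaves, and 6 of the 8 had a lower level of 0.5 or less. The 5 members were KV016699.1:484-698 (0.412 in mature leaves and 0.0336 in young leaves), KV018098.1:450-544 (0.361 in mature leaves and 0.162 in young leaves), KV008068.1:65-278 (0.273 in mature leaves and 0.164 in young leaves), KQ995346.1:247-331 (0.451 in mature leaves and 0.323 in young leaves) and KV015569.1:343-443 (0.642 in mature leaves and 0.413 in young leaves). All 5 belong to the 32 members at 0.5 or less in young leaves, and 4 of the 5 are on gene-poor scaffolds, which held 10 such members in all. Mapping at scaffold ends was not tested.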
